A study of Homo sapiens with 8 samples.

Results

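The genes described here are 37 components of the lysosome and its transcriptional control: the 3 transcription factors TFEB, TFE3 and MITF, 6 lysosomal membrane proteins, 6 lipid enzymes or lipid carriers, 10 proteases, and 12 glycosidases or sulfatases. They were chosen by name, with earlier results of these data known. They were found through GENCODE 29 symbols among the 58735 genes of a table of read counts. All 37 passed the filter on low counts, which left 15647 genes for testing. The counts came from poly(A)-selected RNA of SRA01/04, an established human line from the lens epithelium that grows under a viral large T antigen. In 4 libraries, named shSmurf1 and labelled as the Smurf1 knockdown genotype, the cells carried a short hairpin RNA against SMURF1, a HECT ubiquitin ligase whose substrates include SMADs and TGF-β receptors. In the other 4, named shControl and labelled WT, they carried a negative control hairpin. All 8 libraries were from cells given 20 ng/ml TGF-β2, a cytokine that drives lens epithelial cells into a fibrotic state, for 48 h. No library without TGF-β2 was compared, so every difference is one between hairpins under TGF-β2. The labels describe neither another SMURF1 hairpin nor a rescue, do not name the promoter of the hairpins, and do not say whether each line was a clone. The replicates are called biological, but separate cultures are not described, so the p-values rest on the spread among these 8 libraries, which may be technical.

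Lysosomes break down proteins, lipids, glycans and nucleic acids with acid hydrolases that are made in the endoplasmic reticulum and sorted onwards from the Golgi, many of them on mannose 6-phosphate receptors. Highly glycosylated membrane proteins line the organelle, a proton pump acidifies it, and transporters and carriers export what is released. TFEB, TFE3 and MITF are related basic helix-loop-helix factors that bind E-box sequences, and TFEB and TFE3 are held in the cytoplasm by mTORC1 acting at the lysosomal surface when nutrients are plentiful. Lens epithelial cells carry lysosomes throughout, and during lens fibre formation organelles are removed.

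SMURF1 (ENSG00000198742, GRCh38 chromosome 7, 99027438 to 99144100, minus strand) was read first as a check of the labels. It stood at 51.4, 50.4, 51.4 and 51.2 CPM (read counts relative to the TMM-scaled library size) in the 4 shSmurf1 libraries, against 85.8, 93.3, 88.5 and 88.1 CPM in shControl. The groups did not overlap, and SMURF1 was at 57.5% of its shControl level in shSmurf1 (log2 fold change -0.80 ± 0.05 SE, adjusted p = 2.9e-09, edgeR quasi-likelihood test). The 50 tested genes nearest to SMURF1 had a median log2 fold change of -0.24, and relative to them SMURF1 stood at -0.56. SMURF1 exons share 735 bases with TRRAP on the opposite strand, whose reads may not have been told apart. Total counts ranged from 14688651 to 16789144 in shSmurf1 and from 15000813 to 17030394 in shControl. One library stood apart: shSmurf1 replicate 3 differed from the other shSmurf1 libraries by a chi-square of 9.86 to 13.1 per degree of freedom, against 2.6 to 4.08 for every other pair within a group. Trends with GC content were read on log2 CPM less each gene's mean over the 8 libraries, so they are relative between libraries. In shSmurf1 replicate 3 this value fell by 0.12 per 10 points of gene GC content. The slope was 0.07 to 0.12 in the other 3 shSmurf1 libraries and -0.06 to -0.03 in shControl. Results that rest on shSmurf1 replicate 3 are given below with and without it. Of 12 lens epithelial markers, FOXE3, CRYAA, PITX3, MAF, PROX1 and SOX1 stayed under 1 CPM in every library, SOX1 with no count at all, and PAX6 averaged 34.0 ± 4.53 CPM in shSmurf1 and 33.3 ± 1.78 CPM in shControl (SD, n = 4 each). The 12 markers summed to 1974 to 2313 CPM in shSmurf1 and 2557 to 2599 CPM in shControl, mostly vimentin (VIM), and 3 of the 5 tested, SIX3, GJA1 and VIM, fell (log2 fold changes -0.37, -0.83 and -0.31); the part of this in the results that follow was not tested. These were bulk libraries, in which fewer cells of a type and less RNA per cell cannot be told apart.

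Most lysosomal genes did not pass the test, and the differences that did were modest and went both ways. The threshold for a change was an edgeR adjusted p under 0.05, adjusted over all 15647 genes. By that rule 7 of the 37 genes rose in shSmurf1 (CTSB, CTSA, CTSF, SGSH, GLA, GLB1 and SMPD1), 4 fell (MITF, TPP1, NPC2 and MANBA) and 26 did not pass. Of all genes tested, 22.5% passed, 10.3% higher and 12.2% lower, and among the lysosomal genes 29.7% did. When libraries were scaled by their totals alone, the counts were 9 higher and 2 lower, and 3549 of all genes passed. Without shSmurf1 replicate 3 they were 12 higher and 5 lower, and 5348 of all genes (33.7%) passed. CPM values did not overlap between the groups for 12 of the 37 genes, 9 higher and 3 lower in shSmurf1, and for 23.7% of all genes tested. The median log2 fold change of the 37 genes was 0.05, with 24 above 0 and 13 below, and that of all genes tested was 0.01. The median of the 37 was 0.02 without shSmurf1 replicate 4. In the plot of fold changes the 11 changed genes are 4 proteases, 4 glycosidases or sulfatases, 2 lipid genes and 1 transcription factor, and none of the 6 membrane proteins is among them.

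**Figure D1:**
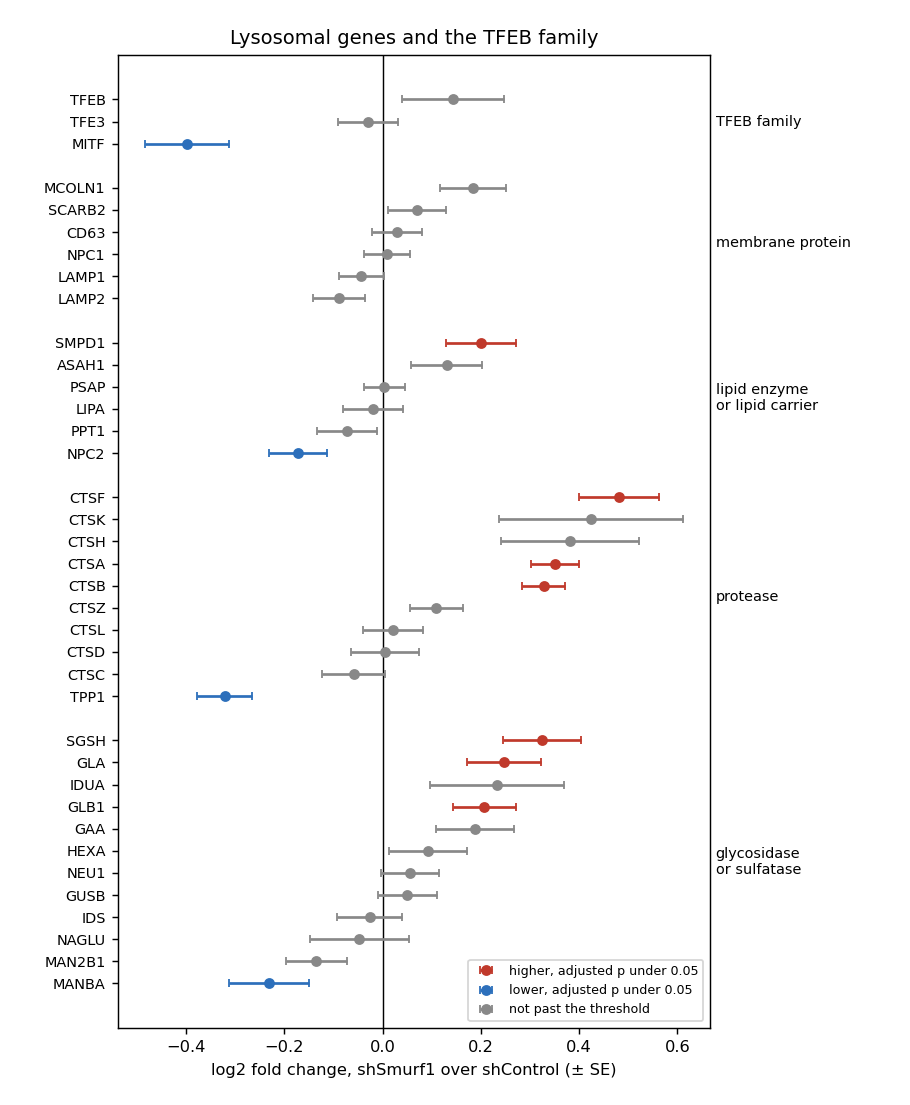
Log2 fold change of each lysosomal gene, shSmurf1 over shControl, with its standard error (bars), grouped by role; colours mark genes past an adjusted p of 0.05. The 7 genes that rose lie between 0.20 and 0.48, the 4 that fell between -0.40 and -0.17, and all 6 membrane proteins are grey.

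Levels can be compared between genes only per length of exon. On that scale PSAP, the precursor of the saposins that help lipid hydrolases reach their substrates, was highest at 322.5 CPM per kb over the 8 libraries. CD63, a tetraspanin of late endosomes, stood at 137 CPM per kb and CTSZ, a carboxypeptidase of the cathepsin family, at 135 CPM per kb, and these neighbours overlapped between libraries. LAMP1 followed at 71.8 and CTSB at 70.0 CPM per kb. The median over the 37 genes was 13.5 CPM per kb, against 4.59 CPM per kb over all genes tested. CTSK and CTSH were lowest, at 1.61 and 1.6 CPM per kb. Exon length was the union over all annotated transcripts, 1887 bases for CTSK and 5892 bases for CTSH. The order of the genes therefore depends in part on the annotation. Libraries of a group were close: the coefficient of variation of a lysosomal gene's CPM had a median of 6.78% in shSmurf1 and 4.73% in shControl. The plot of levels shows that the order of the genes spans far more than any difference between the hairpins.

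**Figure D2:**
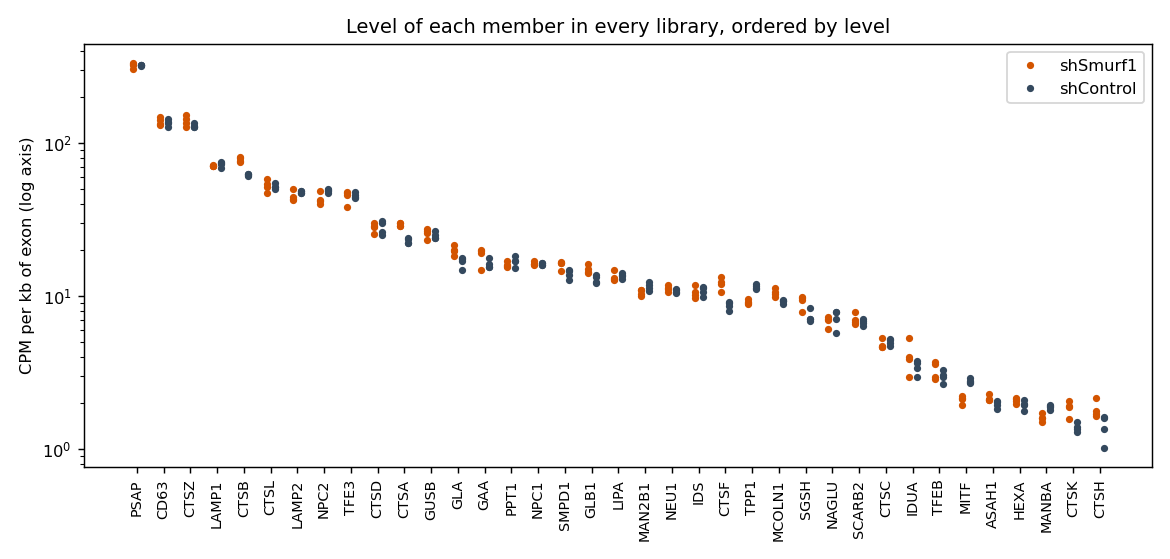
Level of each lysosomal gene in each of the 8 libraries, in CPM per kb of exon on a log axis, genes ordered by mean level, shSmurf1 points left of shControl points. PSAP stands alone at the top, and for most genes the points of the groups lie on one another.

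Of the TFEB family, which directs the transcription of lysosomal genes, only MITF passed the test. MITF (ENSG00000187098, chromosome 3, 69739435 to 69968337, plus strand), the member best known from melanocytes and osteoclasts, stood at 14.0, 15.2, 15.4 and 16.0 CPM in shSmurf1, against 20.9, 19.5, 19.3 and 20.1 CPM in shControl. Every shSmurf1 library was below every shControl library. MITF was at 75.9% of its shControl level (log2 fold change -0.40 ± 0.09 SE, adjusted p = 0.002, edgeR), and it passed in all 17 other settings tried. TFEB itself had 20.9, 20.4, 16.2 and 16.5 CPM in shSmurf1, against 16.5, 18.5, 14.9 and 17 CPM in shControl. The groups overlapped, and the difference did not pass (0.14 ± 0.10 SE on the log2 scale, adjusted p = 0.36, edgeR). TFE3, by far the most abundant of the 3 at 44.9 CPM per kb, had 203, 194, 163 and 200.2 CPM in shSmurf1, against 195, 191, 187 and 203 CPM in shControl. Only shSmurf1 replicate 3 was low, and TFE3 did not pass (-0.03 ± 0.06 SE on the log2 scale, adjusted p = 0.78, edgeR). Of the 7 melanocyte markers listed, 3 had counts enough to be tested (TYRP1, PMEL and MLANA), and none of these 3 passed. The summed level of all 7 was 3.28 to 4.29 CPM in shSmurf1 and 3.91 to 5.85 CPM in shControl. Of the 7 markers, 4, TYR among them, stayed under 1 CPM. The part of such cells in the MITF difference was not tested.

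The promoters show which lysosomal genes carry sequences of the kind this family binds. RefSeq promoter windows on GRCh38.p14, covering 250 bases before to 50 bases after each annotated start, were matched by symbol for 28 of the 37 genes; ASAH1, CTSB, CTSK, HEXA, LAMP2, MANBA, NAGLU, PSAP and SGSH were not matched. Both strands were searched for TCACGTGA, the palindromic core of the CLEAR element, for CACGTG, the E-box that lies inside that core, and for TCATGTG, the M-box known from MITF targets. The stretches below show the matches of CTSA and CTSF, which rose, of TPP1, which fell, and of MCOLN1, GAA and LAMP1, which did not pass the test. Each is printed 5′ to 3′ on the strand of its gene, with the matches in capitals. They are CTSA at chr20:45891275-45891334 on the plus strand, CTSF at chr11:66568646-66568736 on the minus strand, MCOLN1 at chr19:7522569-7522623 on the plus strand, GAA at chr17:80101491-80101566 on the plus strand, LAMP1 at chr13:113297034-113297224 on the plus strand, and TPP1 at chr11:6619423-6619462 on the minus strand.
CTSA: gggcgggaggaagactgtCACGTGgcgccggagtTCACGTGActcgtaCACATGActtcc
CTSF: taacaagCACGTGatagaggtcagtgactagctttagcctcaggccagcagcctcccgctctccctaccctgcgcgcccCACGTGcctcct
MCOLN1: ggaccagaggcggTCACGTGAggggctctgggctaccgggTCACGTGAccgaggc
GAA: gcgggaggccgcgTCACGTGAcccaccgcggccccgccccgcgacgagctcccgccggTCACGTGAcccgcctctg
LAMP1: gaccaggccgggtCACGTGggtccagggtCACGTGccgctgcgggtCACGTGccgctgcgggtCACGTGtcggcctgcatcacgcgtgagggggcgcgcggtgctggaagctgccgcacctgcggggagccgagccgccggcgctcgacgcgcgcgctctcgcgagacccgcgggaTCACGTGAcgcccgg
TPP1: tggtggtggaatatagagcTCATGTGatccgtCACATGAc

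The CLEAR core was present in 4 of the 28 matched genes (14.3%), CTSA, GAA, LAMP1 and MCOLN1, and in 1.18% of all 27305 genes of the promoter table. An E-box was present in 8 of 28 (28.6%), against 8.77% of all genes, and an M-box in 5 of 28 (17.9%), against 3.59%. A gene counted if any of its windows held the match. The 28 genes had 43 windows and all 27305 genes had 35116, and the shares were not adjusted for this. The genes were chosen as lysosomal and the motifs as those of the TFEB family, so the shares are a description and were not tested. Of the 4 genes with a CLEAR core, 1 rose and 3 did not pass the test, of the 8 with an E-box 2 rose and 6 did not pass, and of the 5 with an M-box 1 rose, 1 fell and 3 did not pass. Among all 28 matched genes 5 rose, 3 fell and 20 did not pass. MCOLN1 and GAA, with 2 cores each, and LAMP1, with 4 E-boxes before its first core and another core, not printed, across its start, had log2 fold changes of 0.18, 0.19 and -0.04. The matches are letters in a window and say nothing of binding in these cells.

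**Figure D3:**
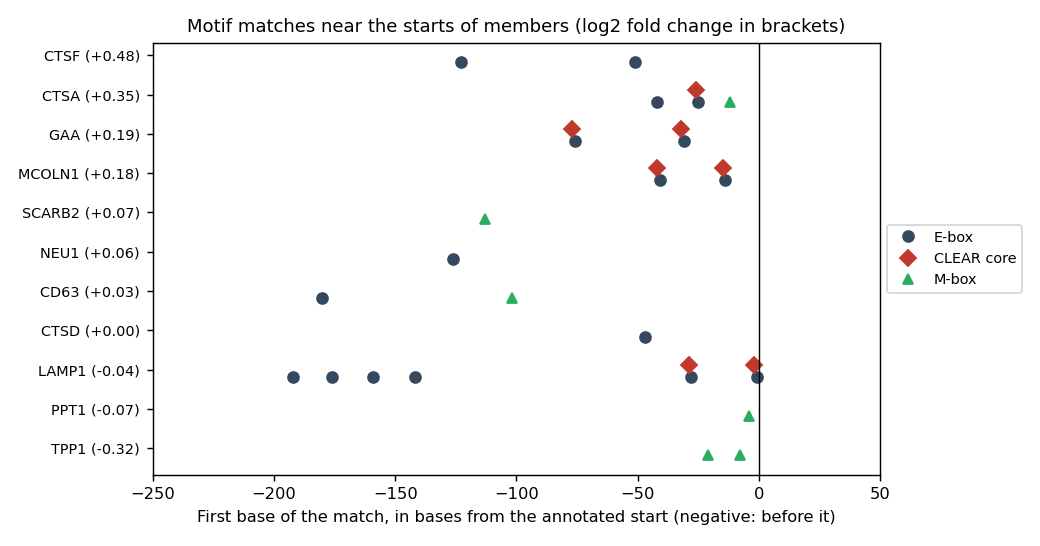
Position of each motif match (circle, E-box; diamond, CLEAR core; triangle, M-box) in bases from the annotated start, one line per lysosomal gene with a match, ordered by log2 fold change (in brackets, shSmurf1 over shControl). CLEAR cores lie within 77 bases before the start in the 4 genes that hold one, whose fold changes run from -0.04 to 0.35.

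None of the 6 membrane proteins passed the test. Of all genes tested 22.5% passed, and 6 genes are too few to compare with that share. LAMP1, a major glycoprotein of the lysosomal membrane, had 403, 403, 412 and 405 CPM in shSmurf1, against 434, 425, 393 and 420.4 CPM in shControl. The groups overlapped because of shControl replicate 3, and the log2 fold change was -0.04 ± 0.05 SE. LAMP2, its relative needed for fusion with autophagosomes and for chaperone-mediated autophagy, had 234, 244, 275 and 238 CPM in shSmurf1, against 260.1, 267, 261 and 266 CPM in shControl. Here shSmurf1 replicate 3 was above all others and the remaining 3 shSmurf1 libraries below all shControl libraries. LAMP2 did not pass with all libraries (log2 fold change -0.09 ± 0.05 SE, adjusted p = 0.26, edgeR), and without that library it did (-0.14, adjusted p = 0.0031, edgeR). In a further setting (GC trends removed), the fitted trend of these relative log2 CPM values with gene GC content was taken out of every library. With GC trends removed, LAMP2 was at -0.01 (adjusted p = 0.82, edgeR). MCOLN1, the calcium channel of the lysosomal membrane, had 40.6, 41.7, 38.8 and 44.2 CPM in shSmurf1, against 36.8, 37.1, 34.8 and 36.8 CPM in shControl. Its groups did not overlap, but it missed the threshold (log2 fold change 0.18 ± 0.07 SE, adjusted p = 0.055, edgeR). Without shSmurf1 replicate 3 its log2 fold change was 0.21 and the adjusted p 0.0085 (edgeR), and with GC trends removed they were 0.09 and 0.27 (edgeR). CD63, SCARB2, also known as LIMP-2, and NPC1, which exports cholesterol, had log2 fold changes of 0.03, 0.07 and 0.01, and their groups overlapped; with GC trends removed SCARB2 passed at 0.13 (adjusted p = 0.028, edgeR). NPC1 exons share 604 bases with RMC1 on the opposite strand, which averaged 23.9 CPM. The summed CPM of the 6 membrane proteins was 1360 ± 27.4 in shSmurf1 and 1369 ± 33.6 in shControl (SD, n = 4 each).

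Among the lipid enzymes and carriers 1 gene rose, 1 fell and 4 did not pass, and both calls were near the threshold. Over all genes tested, 10.3% were called higher and 12.2% lower. SMPD1 (ENSG00000166311, chromosome 11, 6390431 to 6394998, plus strand), the acid sphingomyelinase, had 45.3, 45.5, 39.8 and 45.1 CPM in shSmurf1, against 35.1, 37.5, 39.7 and 40.6 CPM in shControl. The groups overlapped through shSmurf1 replicate 3. SMPD1 rose by 0.20 ± 0.07 SE on the log2 scale (adjusted p = 0.049, edgeR), with an adjusted p of 0.003 without that library and of 0.057 to 0.18 when any other library was left out. NPC2 (ENSG00000119655, chromosome 14, 74476192 to 74494177, minus strand), the soluble carrier that hands cholesterol to NPC1, had 109, 115, 134 and 117 CPM in shSmurf1, against 137, 135, 130.1 and 133 CPM in shControl. Again shSmurf1 replicate 3 lay within the shControl range and the other 3 lay below it. NPC2 had a log2 fold change of -0.17 ± 0.06 SE (adjusted p = 0.043, edgeR); its adjusted p was 8.8e-05 without that library and 0.062 to 0.16 without any other. The log2 fold changes of the 50 tested genes nearest to NPC2 on its chromosome had a median of -0.19, so that NPC2 stood at 0.02 relative to its neighbours, and its exons share 103 bases with ISCA2 on the opposite strand. PSAP had 1066, 1047, 994 and 1077 CPM in shSmurf1, against 1031, 1043, 1049 and 1049 CPM in shControl, and its log2 fold change was 0.00 ± 0.04 SE. The groups overlapped for LIPA, the acid lipase, and PPT1, a thioesterase, which had log2 fold changes of -0.02 and -0.07. PPT1 exons share 1189 bases with CAP1 on the opposite strand, which averaged 192 CPM. ASAH1, the acid ceramidase, had no overlap between groups but did not pass (log2 fold change 0.13 ± 0.07 SE, adjusted p = 0.21, edgeR), and with GC trends removed it did (0.19, adjusted p = 0.022, edgeR).

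Of the 10 proteases 3 rose, CTSB, CTSA and CTSF, 1 fell, TPP1, and 6 did not pass. Over all genes tested, 10.3% were called higher and 12.2% lower. Groups did not overlap for 6 of the 10, 5 of them higher, against 23.7% of all genes tested. The median log2 fold change of the 10 was 0.22. CTSB (ENSG00000164733, chromosome 8, 11842524 to 11869448, minus strand), a cysteine protease with endopeptidase and peptidyl-dipeptidase activity, had 598, 556, 570.0 and 591 CPM in shSmurf1, against 461, 468, 450.0 and 466 CPM in shControl. Every shSmurf1 library was above every shControl library by a wide margin. The level in shSmurf1 was 126% of that in shControl (log2 fold change 0.33 ± 0.04 SE, adjusted p = 1.7e-05, edgeR). CTSA (ENSG00000064601, chromosome 20, 45890144 to 45898820, plus strand), a serine carboxypeptidase that also protects beta-galactosidase and neuraminidase in a complex, had 168, 175, 167 and 176 CPM in shSmurf1, against 130.2, 131, 140.1 and 137 CPM in shControl. Again there was no overlap, and CTSA rose by 0.35 ± 0.05 SE on the log2 scale (adjusted p = 3e-05, edgeR). CTSA exons share bases with NEURL2 and PLTP on the opposite strand, which averaged 1.05 and 4.73 CPM. CTSF (ENSG00000174080, chromosome 11, 66563463 to 66568841, minus strand), another cysteine protease, had 38.3, 34.5, 30.8 and 35.8 CPM in shSmurf1, against 23.0, 24.7, 25.8 and 26.4 CPM in shControl. Its log2 fold change of 0.48 ± 0.08 SE was the highest of the 37 genes (adjusted p = 0.00021, edgeR), with neighbouring genes at a median of 0.13.

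TPP1 (ENSG00000166340, chromosome 11, 6612763 to 6619485, minus strand), a serine protease that removes tripeptides from the ends of proteins, fell. It had 58.3, 59.2, 62.9 and 59.8 CPM in shSmurf1, against 76.0, 78.7, 73.2 and 72.2 CPM in shControl. The groups did not overlap, and TPP1 was at 80.0% of its shControl level (log2 fold change -0.32 ± 0.06 SE, adjusted p = 0.00031, edgeR). CTSB, CTSA, CTSF and TPP1 passed in all 17 other settings. CTSH, an aminopeptidase, and CTSK, a collagen-degrading cysteine protease known from osteoclasts, had fold changes as large but few counts. CTSH had 12.6, 9.9, 10.5 and 9.7 CPM in shSmurf1, against 7.9, 6.0, 9.3 and 9.5 CPM in shControl (log2 fold change 0.38 ± 0.14 SE, adjusted p = 0.058, edgeR), and it passed without shSmurf1 replicate 3 (adjusted p = 0.033) and without shControl replicate 4 (adjusted p = 0.048). CTSK had 3.5, 3.0, 3.9 and 3.6 CPM in shSmurf1, against 2.8, 2.4, 2.6 and 2.5 CPM in shControl (log2 fold change 0.42 ± 0.19 SE, adjusted p = 0.11, edgeR). Neither gene overlapped between groups. Of the 9 macrophage and osteoclast markers listed, 3 (AIF1, CALCR and TYROBP) had no count in any library, and 6 in all stayed under 1 CPM. The summed level of all 9 was 30.6 to 40.2 CPM in shSmurf1 and 23.5 to 28.8 CPM in shControl, mostly ACP5 and CD14. Of the 3 markers that were tested, CD14, ACP5 and CSF1R, CD14 passed (log2 fold change 0.95). The part of such cells in the protease differences was not tested.

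Other abundant proteases did not pass the test. CTSD, the main lysosomal aspartic protease, had 87.6, 89.3, 79.7 and 93.1 CPM in shSmurf1, against 81.3, 78, 93.0 and 96.1 CPM in shControl. The groups lay on one another, with a log2 fold change of 0.00 ± 0.07 SE. CTSL, a cysteine endopeptidase, had 137, 111, 121 and 128 CPM in shSmurf1, against 129, 121, 121 and 119 CPM in shControl, and a log2 fold change of 0.02 ± 0.06 SE. CTSZ had a log2 fold change of 0.11 ± 0.05 SE (adjusted p = 0.16, edgeR), of 0.15 (adjusted p = 0.0031, edgeR) without shSmurf1 replicate 3, and of 0.03 (adjusted p = 0.66, edgeR) with GC trends removed. CTSC, which activates serine proteases of granules, had one of -0.06 ± 0.06 SE. Summed over the 10 proteases, CPM was 1449, 1368, 1366 and 1461 in shSmurf1, against 1233, 1229, 1230 and 1258 in shControl. These sums did not overlap, and CTSB alone averaged 579 ± 19.2 CPM in shSmurf1 and 461 ± 7.96 CPM in shControl. The sum over all 37 genes averaged 5041 ± 101 CPM in shSmurf1 and 4854 ± 45.3 CPM in shControl (SD, n = 4 each), or 104% of shControl, also with no overlap. Without CTSB the sums overlapped, with 4377 to 4568 CPM in shSmurf1 and 4357 to 4444 CPM in shControl.

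Of the 12 glycosidases and sulfatases, which take sugars and sulfate groups off glycans and glycolipids, 3 rose, 1 fell and 8 did not pass. Their median log2 fold change was 0.07. Over all genes tested, 10.3% were called higher and 12.2% lower. SGSH (ENSG00000181523, chromosome 17, 80206716 to 80220923, minus strand), the sulfamidase of heparan sulfate breakdown, had 65.7, 65.2, 52.3 and 62.9 CPM in shSmurf1, against 47.3, 45.8, 56.0 and 47.5 CPM in shControl. The replicates numbered 3 of both groups lay between the others, so the groups overlapped. SGSH rose by 0.32 ± 0.08 SE on the log2 scale (adjusted p = 0.0054, edgeR) and passed in all 17 other settings. The 50 tested genes nearest to SGSH had a median of 0.41, however, and relative to them SGSH stood at -0.08. GAA, the acid alpha-glucosidase that breaks down glycogen, lies in the same stretch of chromosome 17 and had 101.6, 98.0, 76.5 and 103 CPM in shSmurf1, against 79.1, 79.4, 91.6 and 82.8 CPM in shControl. Its groups overlapped through shSmurf1 replicate 3, which was below every shControl library. GAA did not pass (0.19 ± 0.08 SE on the log2 scale, adjusted p = 0.098, edgeR), but stood at 0.28 (adjusted p = 6.9e-05, edgeR) without shSmurf1 replicate 3, and at 0.06 (adjusted p = 0.35, edgeR) with each library's GC trend removed. From 77959240 to 81648465 on chromosome 17, the log2 fold changes of the 54 other tested genes had a median of 0.42, and 37 of them rose while 0 fell.

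GLA (ENSG00000102393, chromosome X, 101397803 to 101408012, minus strand), the alpha-galactosidase, had 45.2, 41.3, 48.9 and 44.5 CPM in shSmurf1, against 40.5, 39.5, 33.5 and 38.2 CPM in shControl. The groups came close but did not overlap. GLA rose by 0.25 ± 0.07 SE on the log2 scale (adjusted p = 0.022, edgeR), and the adjusted p was 0.053 without shSmurf1 replicate 1, 0.094 without shControl replicate 3 and 0.051 without shControl replicate 4. GLB1 (ENSG00000170266, chromosome 3, 32996608 to 33097230, minus strand), the beta-galactosidase that is also read as a senescence stain, had 62.3, 61.5, 70.3 and 65.0 CPM in shSmurf1, against 60.1, 52.6, 57.7 and 54.0 CPM in shControl. Here too there was no overlap. GLB1 rose by 0.21 ± 0.06 SE on the log2 scale (adjusted p = 0.025, edgeR), and the adjusted p was 0.051 without shSmurf1 replicate 4, 0.097 without shControl replicate 2 and 0.085 without shControl replicate 4. MANBA (ENSG00000109323, chromosome 4, 102630770 to 102760994, minus strand), the beta-mannosidase, had 18.7, 17.5, 20.2 and 18.5 CPM in shSmurf1, against 22.3, 22.0, 22.6 and 21.1 CPM in shControl. All 4 shSmurf1 libraries were lower. MANBA had a log2 fold change of -0.23 ± 0.08 SE (adjusted p = 0.047, edgeR); its adjusted p was 0.012 without shSmurf1 replicate 3 and 0.063 to 0.13 without any other library.

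Leaving GAA aside, the 7 glycosidases and sulfatases that did not pass had log2 fold changes between -0.13 and 0.23 and groups that overlapped. IDUA, which removes iduronic acid, had the highest of these, 0.23 ± 0.14 SE (adjusted p = 0.25, edgeR), and passed without shSmurf1 replicate 3 (log2 fold change 0.35, adjusted p = 0.014, edgeR), but with GC trends removed it was at 0.07 (adjusted p = 0.69, edgeR). Its exons share 534 bases with SLC26A1 on the opposite strand. MAN2B1, an alpha-mannosidase, had the lowest, -0.13 ± 0.06 SE (adjusted p = 0.14, edgeR), and passed with GC trends removed (-0.21, adjusted p = 0.0067, edgeR). HEXA, GUSB, NEU1, IDS and NAGLU, which act on gangliosides, glucuronides, sialic acids, iduronate sulfate and heparan sulfate, lay between -0.05 and 0.09. GUSB and IDS have near-identical pseudogene copies, so their counts are uncertain. Of the 37 genes, 18 share exon bases with another gene, 14 of them with one on the opposite strand.

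**Figure D4:**
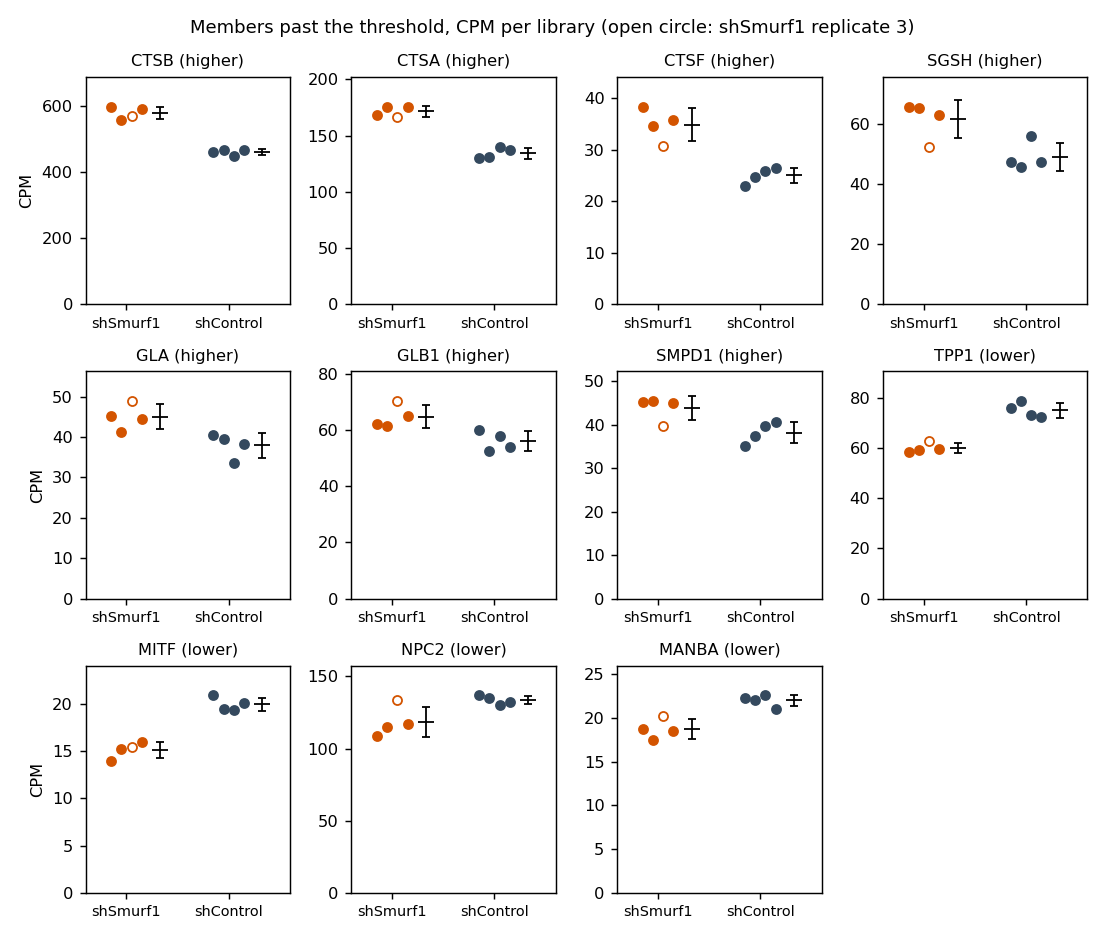
CPM of the 11 lysosomal genes past the threshold in each library (points; the open circle is shSmurf1 replicate 3), with mean and SD (bars, n = 4), shSmurf1 left of shControl, each axis starting at 0. The groups are apart for CTSB, CTSA, CTSF, GLA, GLB1, TPP1, MITF and MANBA, and overlap for SGSH, SMPD1 and NPC2.

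The place of shSmurf1 replicate 3 differed with base composition. Among the 4 shSmurf1 libraries, replicate 3 was highest for 15 genes, whose median GC content was 46.7%, and lowest for 15 genes, whose median GC content was 60.3%. The 37 genes had a median GC content of 53.5%, against 49.2% over all genes tested. The 7 that rose had a median of 57.1%, the 4 that fell one of 47.1%, and the 26 others one of 53.7%. With each library's GC trend removed, 9 of the 37 genes were called higher and 4 lower, while 4453 of all genes (28.5%) were called. Under that setting SMPD1 and MANBA no longer passed (adjusted p = 0.11 and 0.07, edgeR), and ASAH1, SCARB2, CTSH and MAN2B1 did. The 6 genes called in all 17 other settings were CTSA, CTSB, CTSF, SGSH, MITF and TPP1, while GLA and GLB1 each lost the call in 3, NPC2 in 9, SMPD1 in 11 and MANBA in 13. Position was the other property that varied. For 8 of the 37 genes the 50 nearest tested genes had a median of at least 0.1 in size, 5 above 0 (GAA, SGSH, MCOLN1, CTSF and IDUA) and 3 below (LAMP1, NPC2 and PPT1). For CTSB the neighbours' median was 0.00, for CTSA 0.03 and for TPP1 0.03.

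**Figure D5:**
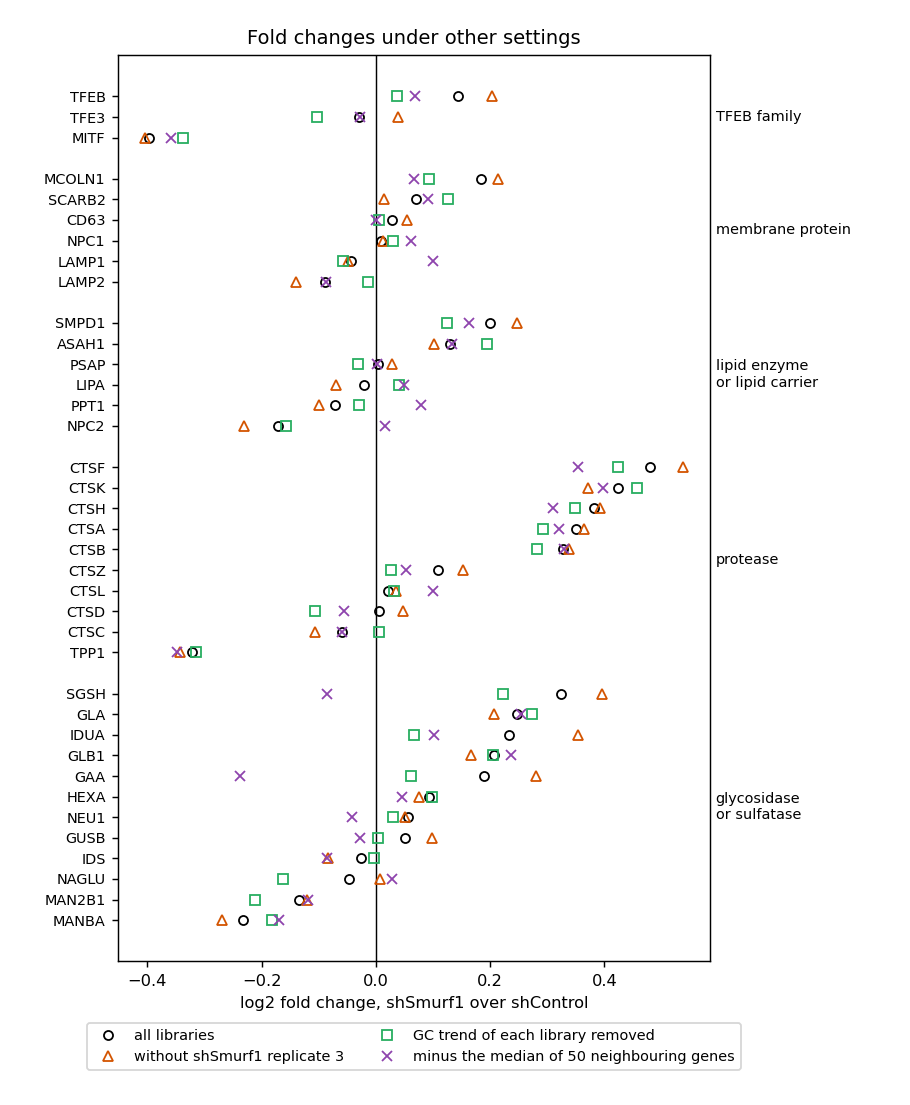
Log2 fold change of each lysosomal gene, shSmurf1 over shControl, with all libraries (circles), without shSmurf1 replicate 3 (triangles), with GC trends removed (squares) and minus the median of the 50 nearest genes (crosses). CTSF, CTSA and CTSB stay above 0 and MITF and TPP1 below 0 under each, whereas SGSH moves to -0.08 and NPC2 to 0.02 relative to their neighbours.

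The wider lysosomal system was read from 6 further lists with 171 genes, of which 154 were tested. In these, 22 genes rose, 12 fell and 120 did not pass, which is 22.1% called and near the 22.5% of all genes; the median log2 fold change was 0.05. Of the 35 tested genes for other soluble enzymes, 4 rose and 1 fell. CPVL, a carboxypeptidase, had 3.07, 2.35, 2.10 and 1.55 CPM in shSmurf1, against 0.24, 0.34, 0.75 and 0.38 CPM in shControl, a large fold (log2 2.39 ± 0.36 SE, adjusted p = 6.4e-05, edgeR) at a very low level. CREG1, a lysosomal glycoprotein, rose by 0.74 ± 0.13 SE on the log2 scale, and CTBS, a chitobiase, fell by 0.53 (SE 0.11); relative to its 50 nearest tested genes, CTBS stood at -0.23. DPP7, abundant in the same list, did not pass (log2 fold change 0.00).

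Of the 34 tested membrane proteins of the second list, 4 rose and 3 fell, against 10.3% and 12.2% of all genes tested. TPCN1, a channel of endosomes and lysosomes, had a log2 fold change of -0.28 ± 0.06 SE and passed with any library left out. SIDT2 (0.31) and the sialic acid exporter SLC17A5 (-0.31) passed with all libraries, but their adjusted p reached 0.063 and 0.14 with 1 library left out (shSmurf1 replicate 2 or 4 or shControl replicate 3 for SIDT2; any but shSmurf1 replicate 3 and shControl replicate 4 for SLC17A5). LAPTM4A and CD164 did not pass (0.00 and 0.07). Of 21 tested subunits and accessory proteins of the vacuolar ATPase, the proton pump, 2 rose and 3 fell. ATP6AP1, an accessory subunit, had 208, 214, 209 and 215 CPM in shSmurf1, against 187, 161, 170 and 180.4 CPM in shControl (log2 fold change 0.28 ± 0.05 SE, adjusted p = 0.00056, edgeR). ATP6V0A1, a subunit of the membrane sector, went the other way, with 33.2, 32.2, 30.9 and 30.5 CPM in shSmurf1, against 43.0, 45.4, 40.04 and 43.7 CPM in shControl (log2 fold change -0.44 ± 0.07 SE, adjusted p = 8.8e-05, edgeR). Neither gene's groups overlapped. ATP6V1G2 rose by 1.11 ± 0.31 SE at a low level, and ATP6V0B fell by 0.24 (SE 0.07) but lost the call without shSmurf1 replicate 2 or without shControl replicate 1, 2 or 3 (adjusted p up to 0.11), and it stood at -0.08 relative to its neighbours. ATP6V0E1 and ATP6V1F did not pass.

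Of 30 genes that sort enzymes to the lysosome 9 rose and 1 fell, against 10.3% and 12.2% of all genes tested, with a median log2 fold change of 0.06. GNPTAB, which encodes subunits of the enzyme that starts the mannose 6-phosphate tag, had 64.6, 67.3, 71.9 and 70.3 CPM in shSmurf1, against 50.2, 55.8, 54.3 and 51.5 CPM in shControl (log2 fold change 0.37 ± 0.06 SE, adjusted p = 0.00014, edgeR). NAGPA, the enzyme that completes the tag, had 19.3, 21.0, 19.7 and 21.4 CPM in shSmurf1, against 13.1, 11.5, 15.8 and 15.4 CPM in shControl (log2 fold change 0.54 ± 0.10 SE, adjusted p = 0.00059, edgeR). No library of one group entered the range of the other for either gene. VPS41, a subunit of the HOPS tethering complex, rose by 0.37 ± 0.06 SE and the sorting receptor SORL1 by 0.47 ± 0.12 SE on the log2 scale, while RAB7A and AP3D1 did not pass (0.05 and 0.03). These 4 calls held with any library left out.

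Of 29 tested genes for the control of TFEB at the lysosome, 2 rose and 4 fell, against 10.3% and 12.2% of all genes tested. LAMTOR1, the subunit that anchors the Ragulator complex, and through it mTORC1, to the lysosomal membrane, had 63.3, 62.5, 66.5 and 69.8 CPM in shSmurf1, against 100.0, 96.5, 92.5 and 105 CPM in shControl. The groups lay far apart (log2 fold change -0.59 ± 0.06 SE, adjusted p = 5.2e-07, edgeR). LAMTOR2 of the same complex rose by 0.42 ± 0.09 SE, and LAMTOR3 fell by 0.36 (SE 0.10), on the log2 scale. RHEB, the GTPase that activates mTORC1, had 126, 104, 122 and 103 CPM in shSmurf1, against 152, 141, 139 and 149.6 CPM in shControl (log2 fold change -0.35 ± 0.07 SE, adjusted p = 5e-04, edgeR). The 50 genes nearest to RHEB had a median of -0.22, and relative to them RHEB stood at -0.13. These 4 calls, too, held with any library left out, and YWHAZ and RRAGA did not pass (log2 fold changes -0.06 and -0.14). Without shSmurf1 replicate 3 both passed (adjusted p = 0.0024 and 0.0038, edgeR), and without any other library neither did. Relative to its 50 nearest tested genes, with a median of -0.24, RRAGA stood at 0.11. Only 5 of 12 listed inhibitors of cathepsins were tested: SERPINB6 rose by 0.20 ± 0.05 SE, while CST3 and CSTB, the abundant cystatins, did not pass (-0.07 and 0.15). Without shSmurf1 replicate 3, 36 genes of the 6 lists rose and 23 fell. With GC trends removed and all libraries kept, 34 rose and 21 fell. Calls over all genes went up too, to 33.7% without that library and to 28.5% with GC trends removed.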

How the data were processed

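Per the labels' protocols, polyadenylated RNA was selected and random-primed. No strand step is described, and no strand setting of the counting is given. Reads of genes that overlap on opposite strands may therefore have been mixed. The authors deposited whole-number counts of reads for each gene, without normalization. The submitters' processing notes list featureCounts (version 1.5.0-p3), HISAT2 (version 2.0.5), fastp and CASAVA, without parameters; the build and the gene models were not given in the sources used here. All 58735 identifiers were found in GENCODE 29 (GRCh38), which gave symbols, coordinates, exon lengths and GC content.

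Genes were kept by filterByExpr (minimum count 10), scaled by TMM and tested with edgeR version 4.0.16 (R version 4.3.3), quasi-likelihood F test, two-sided, 4 shSmurf1 against 4 shControl libraries without covariates, Benjamini-Hochberg over 15647 genes. Standard errors are the log2 fold change over the root of F. CPM per kb divides CPM by exon length, the union of the exons of all annotated transcripts of a gene. The test was tested on simulated counts. DESeq2 version 1.42.0 and limma-voom version 3.58.1 were among the 17 other settings. DESeq2 called 7 lysosomal genes higher and 3 lower, and MANBA lost its call. With limma-voom 7 were higher and 4 lower. Further settings are compared in the closing section. Genes named outside the 37 were SMURF1, markers and genes of the other lists. Per list these were up to 4 changed genes with the largest fold change and 2 not past the threshold with the highest level. TRRAP, NEURL2, PLTP, ISCA2, SLC26A1, CAP1 and RMC1 were added for their overlaps. Some genes selected so are left out of the text. Members and lists were chosen with earlier results of these data known.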

Additional observations from a re-analysis of the deposited data

Results flagged for a closer look

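In 7 of 142 groups of 4 libraries looked at (the lysosomal genes, SMURF1 and the named genes of the other lists), a single library lay apart from the other 3 by Dixon's criterion; chance gives about 1 in 20. In shSmurf1, replicate 3 was the library set apart for CTSC at 60.4 CPM (the others 52.5 to 53.4), for PPT1 at 86.5 CPM (the others 79.1 to 80.4), for SMPD1 at 39.8 CPM (the others 45.1 to 45.5) and for YWHAZ at 1169 CPM (the others 964 to 979). In shControl, replicate 3 was set apart for SGSH at 56.0 CPM (the others 45.8 to 47.5) and for MCOLN1 at 34.8 CPM (the others 36.8 to 37.1), and replicate 4 for SLC17A5 at 25.6 CPM (the others 29.3 to 29.5). The 4 shSmurf1 cases share the library that stood apart in its GC trend, whose part in them was not tested.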

How the results depend on the processing

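SMURF1 stayed between -0.82 and -0.78 on the log2 scale and past the threshold in all 17 settings. With libraries left out in turn, the genes called ranged from 2763 (without shControl replicate 2) to 5348 (without shSmurf1 replicate 3), lysosomal genes called higher from 5 to 12, those called lower from 2 (without any library but shSmurf1 replicate 3) to 5, their median log2 fold change from 0.019 (without shSmurf1 replicate 4) to 0.058, and the other lysosomal genes from 16 to 36 higher and from 8 to 23 lower, the highest again without shSmurf1 replicate 3. Scaling by totals alone left 2 lysosomal genes lower, while 3549 of all genes were called. With GC trends removed, 4453 of all genes were called, and of the other lysosomal genes 34 were higher and 21 lower. A setting with GC trends removed and shSmurf1 replicate 3 left out was chosen after seeing the data. It called 4465 of all genes (28.1%), with 7 lysosomal genes higher and 5 lower. Of the other lysosomal genes 32 were higher and 21 lower, and CTSD turned to -0.14 (adjusted p = 0.040, edgeR). Relative to their neighbours on the chromosome, of the called lysosomal genes NPC2 turned to 0.016 and SGSH to -0.085. Genes that were not called changed sign too, among them GAA from 0.19 to -0.24, LAMP1 from -0.04 to 0.10 and PPT1 from -0.07 to 0.08. The sum without CTSB and the values of CTBS, ATP6V0B, RHEB and RRAGA relative to their neighbours were also added after seeing the data. Of the lysosomal genes not called, 10 passed in at least 1 setting and 16 in none; the cause of these changes was not tested.

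Replicate numbers did not pair the libraries: same-numbered libraries had correlated deviations of 0.03, -0.01, -0.07 and 0.03. With a replicate block, 3192 genes, 6 lysosomal genes higher and 2 lower were called. CTSK had the fewest counts of the lysosomal genes, 218 summed over shSmurf1 and 165 over shControl, and the widest standard error, 0.19 on the log2 scale.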
